A study of Mus musculus with 30 samples.

Results

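Genes of 6 CC chemokines and of the hyaluronan-binding protein Tnfaip6 were followed in the preputial gland duct of mice. The animals ate benzo[a]pyrene (BaP), a combustion product that causes cancer. The 7 genes, Ccl2, Ccl3, Ccl4, Ccl7, Ccl8, Ccl12 and Tnfaip6, are 7 of the 18784 genes measured. They were chosen by their log2 values at week 12: Ccl7 and Tnfaip6 were higher there in wild type and lower in Cyp1a1 knockout. The values of WT week 12 against week 0, and of Cyp1a1 KO against WT at week 12, are therefore a description and carry no test here.

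The mice were males of 3 genotypes: Cyp1a1/1b1 double knockout (DKO), which lacks both BaP-metabolising cytochromes P450 1A1 and 1B1, Cyp1a1 knockout (KO), and wild type (WT), all on a B6 background. All genotypes began a corn oil-soaked diet with BaP at 6 weeks of age, at about 12.5 mg/kg/day. Per the labels, 15 mice per genotype were killed at each of weeks 0, 4, 8, 12 and 16, and RNA came from 2 of these mice per group. Each group has 2 arrays, taken here as 1 mouse each, which the labels do not state outright. Week 0 supplied the only mice without BaP, so exposure and age cannot be told apart. Values are log2 intensities, so a difference of 1 is a doubling, and levels of different genes are not set against each other.

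The arrays were not alike in range. The spread of log2 values over all genes (standard deviation) was 1.15 to 1.42 in 9 arrays and 1.70 to 2.08 in the other 21. The 9 narrow-range arrays were 8 of 10 DKO arrays (all but week 0 replicate 1 and week 12 replicate 2) and Cyp1a1 KO week 12 replicate 2. The numbers in the sample descriptions were 20, 22 to 28, 31 and 33 for DKO, 11 to 19 and 30 for Cyp1a1 KO, and 1 to 10 for WT, so genotype and number range nearly coincide. The targeted Cyp1a1 read 3.96 to 6.14 in DKO arrays, 3.67 to 4.80 in KO arrays and 4.26 to 4.74 in WT arrays. Cyp1b1 read 7.48 to 10.57 in arrays labelled DKO, 6.66 to 8.82 in KO and 6.17 to 6.77 in WT. Where these probe sets lie relative to the deleted parts was not used here, so neither gene checks the labels. Sebaceous markers, the labelled tissue, averaged 5.54 to 7.85 in DKO arrays, 7.36 to 8.69 in Cyp1a1 KO arrays and 8.59 to 9.07 in WT arrays, over 7 of 8 listed genes. Keratinocyte markers, the cells that line the duct, were present in all, with array means of 7.55 to 9.25 in DKO, 7.37 to 8.13 in Cyp1a1 KO and 7.65 to 8.31 in WT.

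Chemokines are small secreted proteins that draw leukocytes along a gradient. Ccl2, Ccl7 and Ccl12 are ligands of Ccr2, the receptor through which monocytes leave marrow and enter inflamed tissue. Ccl8 belongs to the same monocyte chemoattractant group by sequence, and in the mouse it acts on Ccr8. Ccl3 and Ccl4, the macrophage inflammatory proteins, are made by activated leukocytes. Tnfaip6, also called TSG-6, is secreted after TNF or interleukin-1 stimulation, binds hyaluronan, and moves the heavy chains of inter-alpha-inhibitor onto it. The 6 chemokine genes lie on chromosome 11 and Tnfaip6 on chromosome 2. In the annotation Ccl2 and Ccl7 are neighbours, Ccl12 and Ccl8 are neighbours, and Ccl3 and Ccl4 are neighbours.

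Promoters are shown for Tnfaip6 and Ccl8, because one was highest in WT at week 12 and the other in DKO at week 12. RefSeq promoters (GRCm38.p6) were found for 4 of the 7 genes, Tnfaip6, Ccl3, Ccl8 and Ccl12. The 250 bases before each start are given 5′ to 3′ on the + strand, at chr2:52037863-52038112 for Tnfaip6 and chr11:82114935-82115184 for Ccl8. Capitals mark a match to the AP-1 motif TGANTCA.
Tnfaip6: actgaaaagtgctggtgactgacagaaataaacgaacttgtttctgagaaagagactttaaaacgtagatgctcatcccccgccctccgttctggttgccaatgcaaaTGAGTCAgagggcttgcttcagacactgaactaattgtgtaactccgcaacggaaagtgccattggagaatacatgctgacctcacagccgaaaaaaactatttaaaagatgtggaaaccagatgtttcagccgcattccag
Ccl8: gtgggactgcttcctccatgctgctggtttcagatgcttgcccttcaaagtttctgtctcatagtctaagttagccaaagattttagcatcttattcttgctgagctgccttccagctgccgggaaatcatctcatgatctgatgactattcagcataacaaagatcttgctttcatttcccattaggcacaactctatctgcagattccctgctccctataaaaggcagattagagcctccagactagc
Both strands were searched for the NF-kB consensus, for AP-1 (TGANTCA) and for the core of the aryl hydrocarbon receptor site (GCGTG). The only match in the 4 promoters was AP-1 in Tnfaip6, at 142 to 136 bases before the start, which reads as the motif on both strands. Of 32851 promoters, 6.75% held AP-1, 7.25% the NF-kB consensus and 28.16% the receptor core. A match is a description of letters and not a bound site.

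In WT glands at week 12, Tnfaip6, Ccl2 and Ccl7 stood far above every other week. Tnfaip6 read 6.76 and 8.17 at week 12, against 4.22 and 4.43 at week 0. At weeks 4, 8 and 16 Tnfaip6 read 4.35 and 4.999, 4.14 and 3.74, and 5.12 and 5.80. Both week 12 arrays exceeded the other 8 WT arrays. The difference from week 0 was 3.14 ± 0.42 log2, the highest of all 18784 genes in that contrast. Ccl2 read 7.54 and 8.33 at week 12, against 5.26 and 5.53 at week 0, a difference of 2.54 ± 0.49 (5.83-fold). Ccl2 at weeks 4, 8 and 16 read 5.68 and 5.48, 5.20 and 5.03, and 5.89 and 6.44. Ccl2, the main monocyte attractant, ranked 2 among all genes in the same contrast. That contrast helped to choose the genes, so nothing is read from these ranks. Ccl7 read 7.10 and 7.51 at week 12, against 4.92 and 5.35 at week 0, a difference of 2.17 ± 0.34. Its arrays at weeks 4, 8 and 16 lay between 5.04 and 5.65, below both week 12 arrays.

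The other chemokines did not share this peak to the same size. Ccl8 read 6.08 and 5.32 at week 12, against 4.52 and 4.56 at week 0 (difference 1.16 ± 0.57), and its lower week 12 array lay within the week 8 values of 5.41 and 5.18. Ccl12 read 6.53 and 7.74 at week 12 against 6.77 and 6.76 at week 0, so the groups overlapped. Ccl3 differed by 0.03 ± 0.67 and Ccl4 by 0.18 ± 0.28. Arrays at week 12 lay above both week 0 arrays for 5 of the 7 genes, among them Ccl4, which differed little. Over all genes 19.2% did so, and since the choice used this contrast nothing is read from the count.

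**Figure D1:**
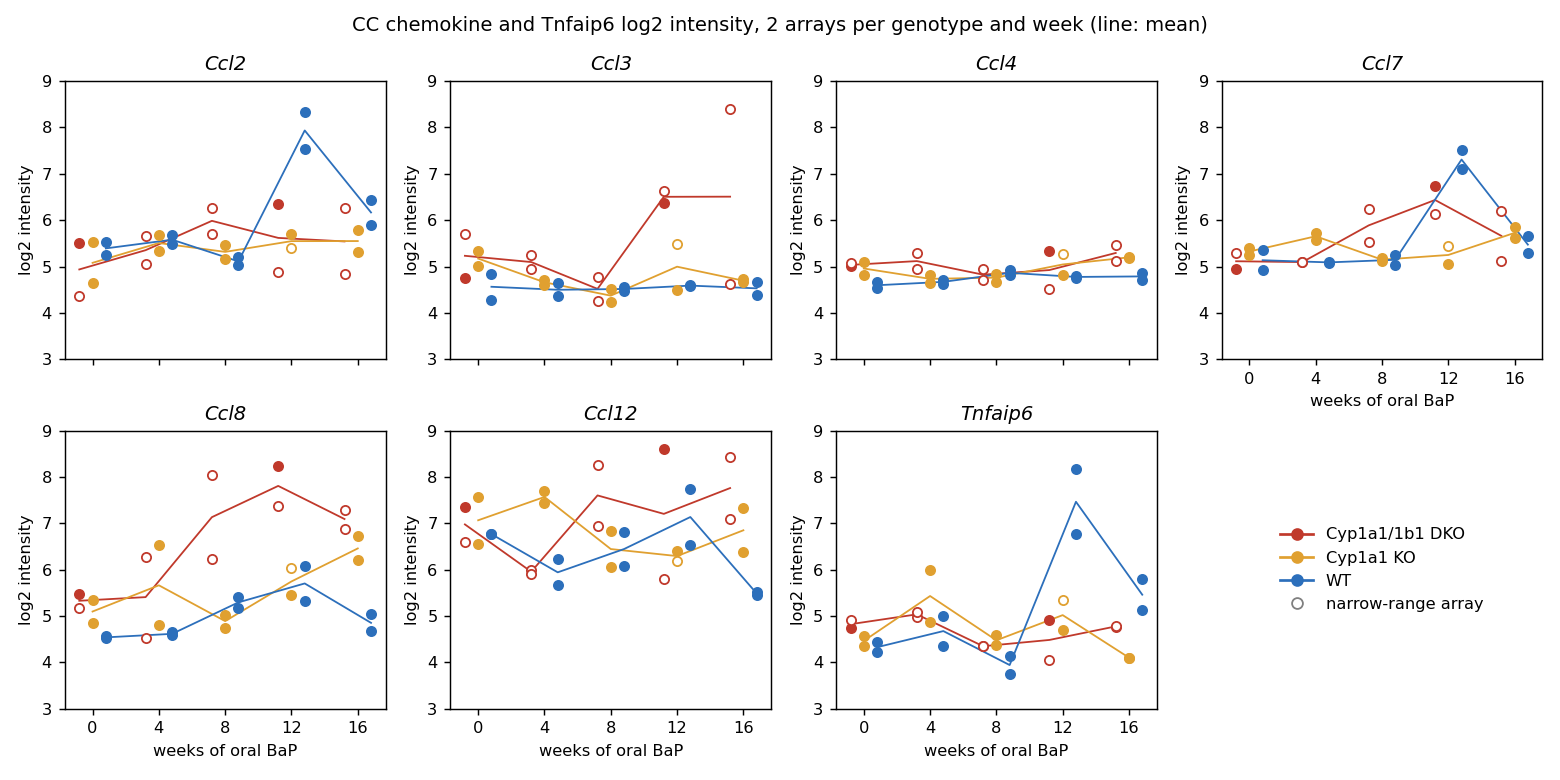
Log2 intensity of each gene (y axis) by weeks of oral BaP (x axis) for Cyp1a1/1b1 DKO, Cyp1a1 KO and WT; each point is 1 array, lines join the means of 2 arrays, and open points are narrow-range arrays. Tnfaip6, Ccl2 and Ccl7 are highest in the 2 WT arrays of week 12, Ccl8 in a DKO array of week 12 (8.24), and Ccl3 in a DKO array of week 16 (8.39).

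Averages of cell type marker lists were also read at WT week 12 against week 0, as a description. Their sizes are not set against those of the 3 genes, which this contrast helped to choose. The 12 measured monocyte and macrophage markers of 15 listed averaged 6.27 and 6.53 in the week 12 arrays, against 6.43 and 6.23 at week 0. Of these 12, 7 were higher, with a median difference of 0.07, where the median of all genes was 0.03. Fibroblast markers were higher for 1 of 8, with a median of -0.23. Neutrophil markers were higher for 6 of 10, with a median of 0.10. T cell markers averaged 4.87 and 4.86 at week 12, against 4.47 and 4.53 at week 0, and mast cell markers 5.21 and 5.08 against 4.98 and 4.97, so both lists were above both week 0 arrays. Endothelial markers lay below them, at 5.70 and 6.01 against 6.31 and 6.05, as did fibroblast markers, at 6.44 and 6.54 against 6.83 and 6.66. The part of these lists in the week 12 values was not tested. In gland RNA, fewer cells of a type and less RNA per cell cannot be told apart. Among the 19 measured cytokine and NF-kB genes of 20 listed, 17 were higher, with a median of 0.20. Their averages were 5.15 and 5.65 at week 12, against 5.06 and 4.86 at week 0 and 5.15 and 5.05 at week 8. Il1b, a cytokine that induces Tnfaip6, was higher by 1.56 ± 0.55, with 5.86 and 7.24 at week 12 against 5.33 and 4.64 at week 0. At week 16 Il1b read 6.13 and 6.62, both above the lower week 12 array. The 11 measured other CC chemokines of 14 listed were all higher, with a median of 0.53.

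Cyp1a1 KO glands at week 12 lacked the peak, which is part of how the genes were picked. Tnfaip6 read 4.70 and 5.34 in KO, against 6.76 and 8.17 in WT, a difference of -2.44 ± 0.42. Ccl2 read 5.69 and 5.40 in KO, against 7.54 and 8.33 in WT, a difference of -2.39 ± 0.49. Ccl7 read 5.05 and 5.45 in KO, against 7.10 and 7.51 in WT, a difference of -2.06 ± 0.34. Ccl8 overlapped, at 5.46 and 6.04 in KO against 6.08 and 5.32 in WT. The KO arrays lay below both WT arrays for 4 of the 7 genes, Ccl12 being the fourth, where 17.6% of all genes did so. One of the KO arrays, replicate 2, is narrow-range.

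DKO glands at week 12 also lacked the Tnfaip6 and Ccl2 peak. Tnfaip6 read 4.04 and 4.92 in DKO, against 6.76 and 8.17 in WT, and Ccl2 read 4.88 and 6.35 in DKO, against 7.54 and 8.33 in WT. The differences were -2.98 ± 0.42 and -2.32 ± 0.49. Ccl7 was closer, at 6.13 and 6.74 in DKO, a difference of -0.87 ± 0.34. Ccl8 and Ccl3 ran the other way, with differences of 2.10 ± 0.57 and 1.91 ± 0.67, and both DKO arrays lay above both WT arrays. How many of all genes did so between DKO and WT was not counted. These contrasts include WT week 12 and carry no test.

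At week 16 the WT values of Tnfaip6 and Ccl2 lay between those of week 12 and of earlier weeks. WT week 16 was tested against weeks 4 and 8, arrays that the stated choice does not name. Earlier results of these data were known, so these arrays may not be independent of the choice. Tnfaip6 read 5.12 and 5.80 at week 16, against 4.35, 4.999, 4.14 and 3.74 at weeks 4 and 8, a difference of 1.15 ± 0.36 (limma adjusted p = 1.0). Ccl2 read 5.89 and 6.44 at week 16, against 5.68, 5.48, 5.20 and 5.03, a difference of 0.82 ± 0.43. Ccl7 was higher by 0.36 ± 0.29. These 3 genes did not overlap between the groups, which 13.7% of all genes also did in that direction. Ccl12 ran the other way, at 5.45 and 5.52 against 6.22, 5.66, 6.80 and 6.09. None of the 7 was called, and 0% of all genes were, with 40 genes at an unadjusted p under 0.05.

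That test takes its spread from all 15 groups, and other settings gave other answers. Array weights from limma, larger for less variable arrays, were 0.178 to 0.350 in DKO, 0.189 to 3.11 in KO and 1.44 to 6.39 in WT. With these weights Tnfaip6 (adjusted p = 0.00432) and Ccl2 (adjusted p = 0.00731) passed at WT week 16, 2 of the 7 against 1.05% of all genes. Neither passed with only the groups compared (adjusted p = 0.100 for Tnfaip6 and 0.0902 for Ccl2) or without the narrow-range arrays (adjusted p = 0.9999 for both). All 19 cytokine and NF-kB genes had a positive difference at WT week 16, with a median of 0.18 against 0.03 for all genes, and none was called in the unweighted fit. The macrophage list had a median of 0.08, with 9 of 12 positive.

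In Cyp1a1 KO glands no change of a member with exposure passed the test. Ccl8 varied most, at 5.35 and 4.84 at week 0, 4.80 and 6.52 at week 4, 5.03 and 4.75 at week 8, 5.46 and 6.04 at week 12, and 6.72 and 6.20 at week 16. Both week 16 arrays lay above both week 0 arrays, while the 2 week 4 arrays lay on either side of them. The share of all genes without overlap between those weeks was not counted. Tnfaip6 ranged from 4.10 to 5.98, Ccl2 from 4.64 to 5.78 and Ccl7 from 5.05 to 5.84. Over weeks 4, 8 and 16 against week 0, Ccl8 differed by 0.57 ± 0.46, Ccl3 by -0.60 ± 0.54 and Tnfaip6 by 0.21 ± 0.34. No member was called (adjusted p = 1.0 for each by limma), and 0% of all genes were, with 311 genes at an unadjusted p under 0.05.

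A single KO array held the highest KO values of Tnfaip6 (5.98), and of Ccl12 (7.71). This was week 4 replicate 2, which also had the second highest Ccl8 value. The same array had the highest KO averages of macrophage markers (7.24), fibroblast markers (7.59) and skeletal muscle markers (6.78). The other 9 KO arrays had muscle averages of 4.82 to 5.79. The part of these markers in the chemokine values was not tested.

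In DKO glands Ccl8 rose at week 12. It read 5.48 and 5.18 at week 0, 6.28 and 4.53 at week 4, 6.23 and 8.03 at week 8, 7.37 and 8.24 at week 12, and 7.30 and 6.89 at week 16. All 6 arrays from week 8 on lay above both week 0 arrays, while the week 4 pair straddled them. The share of all genes with that order was not counted. At week 12 the difference from week 0 was 2.48 ± 0.57 (5.57-fold, limma adjusted p = 0.0483), the only member called at that week, where 0.554% of all genes were. At week 4 and week 8, where 0.522% and 0.953% of all genes were called, no member was. Ccl8 then differed by 0.08 ± 0.57 and 1.80 ± 0.57. At week 16 it differed by 1.76 ± 0.57 (adjusted p = 0.0765), where 4.04% of all genes were called and again no member. The mean of weeks 4 to 16 differed by 1.53 ± 0.45 (adjusted p = 0.0968), where 0.974% of all genes were called.

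The week 12 call was lost in several other settings. Leaving out DKO week 0 replicate 2, DKO week 12 replicate 1 or DKO week 12 replicate 2 gave differences of 2.33, 2.91 and 2.04, with adjusted p = 0.157, 0.0845 and 0.162. The adjusted p was 1.0 with array weights, 0.800 with only the groups compared, 0.0601 after median centring and 0.0643 with the replicate number as a block. The only pair of wide-range arrays, DKO week 12 replicate 2 against week 0 replicate 1, gave 2.76 for Ccl8 (adjusted p = 0.00802), 1.80 for Ccl7 (adjusted p = 9.36e-04) and 1.62 for Ccl3 (adjusted p = 0.00245), with the lone arrays assumed to vary like the other groups. In that setting 7.89% of all genes were called, against 0.554% with all arrays.

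Ccl7 and Ccl3 in DKO glands read higher in both week 12 arrays than in both week 0 arrays, though neither difference passed the test. The share of all genes without such overlap was not counted, so nothing is read from it. Ccl7 in DKO read 4.94 and 5.29 at week 0, 5.11 and 5.09 at week 4, 5.53 and 6.25 at week 8, 6.13 and 6.74 at week 12, and 6.19 and 5.13 at week 16. The difference at week 12 was 1.32 ± 0.34 (adjusted p = 0.0982) and over weeks 4 to 16 it was 0.66 ± 0.27 (adjusted p = 0.229). Ccl3 read 4.76 and 5.71 at week 0 and between 4.25 and 5.25 at weeks 4 and 8. It then read 6.63 and 6.37 at week 12, and 8.39 and 4.62 at week 16. The 2 week 16 arrays were farther apart than any other pair for Ccl3, and their week 16 difference from week 0 was 1.27 ± 0.67 (adjusted p = 0.265). Without replicate 2 it was 3.16 (adjusted p = 8.23e-05), where 10.4% of all genes were called. Without replicate 1 it was -0.61 (adjusted p = 0.508), so the direction turned with the array left out. In both cases the lone week 16 array is assumed to vary like the other groups.

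For the remaining 4 genes no difference in DKO passed the test. Tnfaip6 stayed between 4.04 and 5.09 in all 10 DKO arrays and differed by -0.16 ± 0.33 over weeks 4 to 16. Ccl2 ranged from 4.37 to 6.35 and differed by 0.69 ± 0.39 (adjusted p = 0.395). Ccl12 ranged from 5.81 to 8.60, with both extremes at week 12, and differed by 0.15 ± 0.52. Ccl4 differed by 0.00 ± 0.22, and over all 30 arrays it lay between 4.52 and 5.47. Ccl4 was above its array's median in 0 of 30 arrays, Tnfaip6 in 4 and Ccl3 in 5, against 15 to 30 for the other genes. Whether such low values exceed background was not tested.

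**Figure D2:**
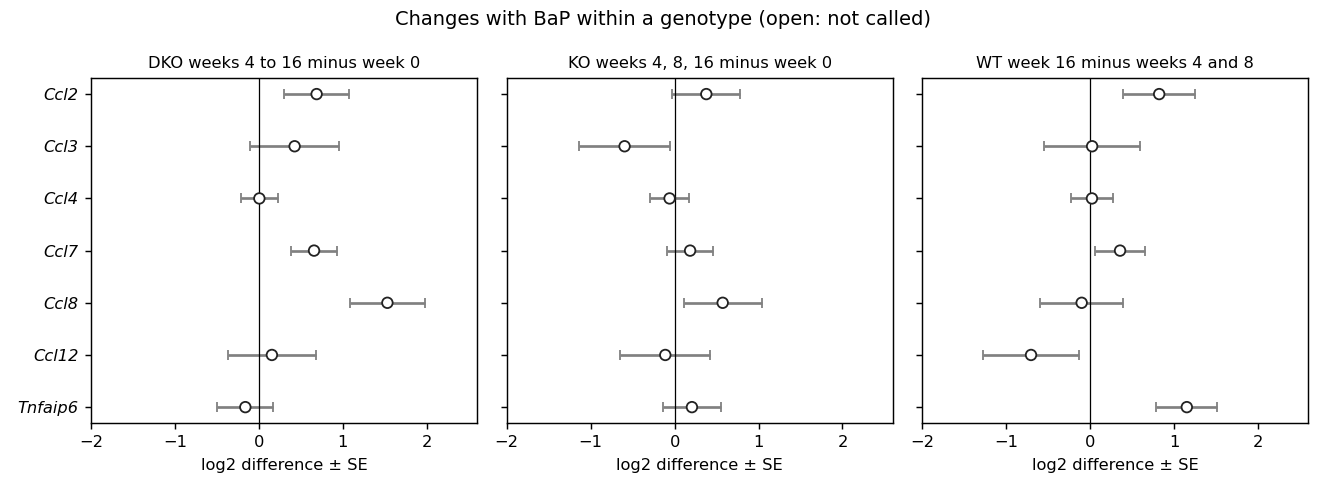
Log2 difference with its standard error (x axis) for each gene (y axis) in DKO weeks 4 to 16 against week 0, Cyp1a1 KO weeks 4, 8 and 16 against week 0, and WT week 16 against weeks 4 and 8; open points did not pass the adjusted threshold. Ccl8 is the largest in DKO at 1.53, and Tnfaip6 the largest in WT at 1.15.

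Averages of the macrophage and neutrophil lists were higher in many of the same DKO arrays. The macrophage list averaged 6.33 and 5.71 at week 0, 5.76 and 5.87 at week 4, 6.05 and 6.77 at week 8, 6.68 and 7.34 at week 12, and 7.06 and 6.29 at week 16. At week 12, 10 of its 12 genes were positive with a median of 1.18 against 0.01 for all genes, and 1 rose: C1qc, a complement subunit made by macrophages, by 2.01 ± 0.46 (adjusted p = 0.0464). The neutrophil list averaged 4.76 and 4.78 at week 0, and 6.53 and 6.28 at week 12. Of its 10 genes 3 rose at week 12: S100a8, S100a9 and Cxcr2. S100a8, a calcium-binding protein also made by activated keratinocytes, rose by 6.57 ± 0.89, which by itself raised the list average. How much of that average reflects neutrophils was not tested. These marker genes were named after their values were seen. Over all genes 0.554% were called at DKO week 12, which is 104 genes, and 6 genes with only the groups compared. Alternatives were run for the 7 genes alone, so the marker calls were not rechecked. Other cell lists differed in the same arrays. Keratinocyte markers averaged 9.11 and 9.17 at week 12, against 7.96 and 7.55 at week 0. Fibroblast markers averaged 7.32 and 7.74 at week 12, against 7.17 and 6.48 at week 0. Sebaceous markers were lower, at 6.93 and 6.65 at week 12, against 7.85 and 7.22 at week 0. In each of these 3 lists the week 12 and week 0 arrays did not overlap. The highest Ccl8 array, DKO week 12 replicate 2, also had the highest macrophage average of all 30. DKO week 4 replicate 1 had a Ccl8 of 6.28 at a macrophage average of 5.76. The part of the markers in the Ccl8 change was not tested.

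**Figure D3:**
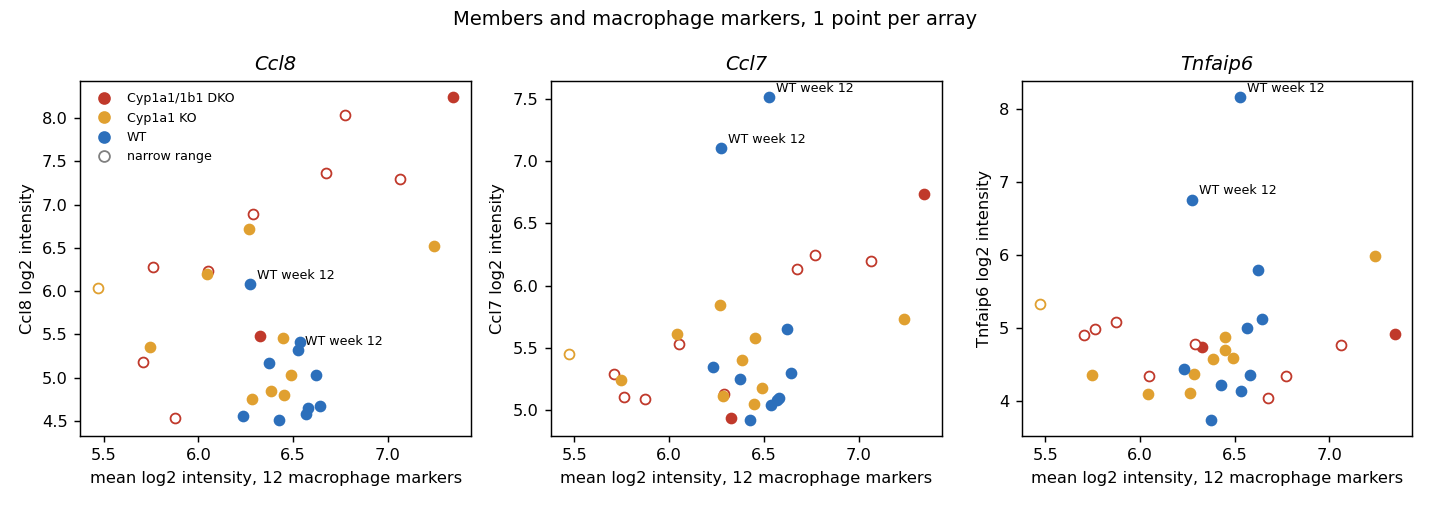
Log2 intensity of Ccl8, Ccl7 and Tnfaip6 (y axes) against the mean log2 intensity of 12 macrophage markers (x axis), 1 point per array for DKO, Cyp1a1 KO and WT; open points are narrow-range arrays. The 2 WT week 12 arrays have macrophage averages of 6.27 and 6.53 and the highest Ccl7 and Tnfaip6, while DKO arrays with high Ccl8 lie mostly to the right.

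Between genotypes over weeks 4, 8 and 16, Ccl8 and Ccl12 were the members called in DKO against WT, though their arrays overlapped. Ccl8 was higher in DKO than in WT by 1.62 ± 0.33 (3.08-fold, adjusted p = 0.000243), with DKO arrays from 4.53 to 8.03 and WT arrays from 4.58 to 5.41. Ccl12 was higher by 1.15 ± 0.38 (adjusted p = 0.0112), with DKO arrays from 5.91 to 8.42 and WT arrays from 5.45 to 6.80. Ccl3 differed by 0.86 ± 0.38 (adjusted p = 0.0519) and Ccl7 by 0.31 ± 0.20. Tnfaip6 and Ccl2 differed by 0.03 ± 0.24 and 0.01 ± 0.29. The 2 called members of 7 stand against 68.7% of all genes called between these genotypes, whose median difference was 0.18, so the count is below the background. With the number range as a block (up to 20, or 22 and above) neither was called (Ccl8 1.48, adjusted p = 0.309, and Ccl12 1.63, adjusted p = 0.337). This block nearly coincides with DKO, so the fit can hardly tell number range from genotype. Calls over all genes fell from 12900 to 121 with it.

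Ccl8 was also higher in DKO than in Cyp1a1 KO, by 0.87 ± 0.33 (adjusted p = 0.0252), 1 of 7 members against 62.8% of all genes. KO arrays at these weeks ranged from 4.75 to 6.72. With arrays centred on their medians the difference was 0.75 (adjusted p = 0.0520), and with array weights the adjusted p was 0.0659. The call was also lost, with differences of 0.57 to 0.83, without any 1 of 6 arrays: KO week 4 replicate 1, KO week 8 replicate 2, KO week 16 replicate 2, DKO week 4 replicate 1, DKO week 8 replicate 2 or DKO week 16 replicate 1. The change from week 0 was not called as different between DKO and KO for any member, where 0.0373% of all genes were, and Ccl8 had a difference between the changes of 0.64 ± 0.66 (adjusted p = 0.685).

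Cyp1a1 KO against WT gave Ccl12 and Ccl8 as the largest differences. Ccl12 in KO read 7.43, 7.71, 6.83, 6.06, 7.32 and 6.38, against 6.22, 5.66, 6.80, 6.09, 5.45 and 5.52 in WT, over weeks 4, 8 and 16 in turn. The difference was 1.00 ± 0.38 (adjusted p = 0.461), present at weeks 4 and 16, while the week 8 means were equal. Ccl8 differed by 0.75 ± 0.33 (adjusted p = 0.643). No member was called, where 0.149% of all genes were. A fit of only these groups, which drops the DKO arrays from the spread, called Ccl12 (adjusted p = 0.00283), Ccl8 (adjusted p = 0.0310) and Ccl7 (adjusted p = 0.0404), 3 of 7 against 24.9% of all genes. With array weights the same 3 were called against 25.3% of all genes. Sebaceous markers were lower in KO for 7 of 7 genes, with a median of -0.57, and their part was not tested.

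**Figure D4:**
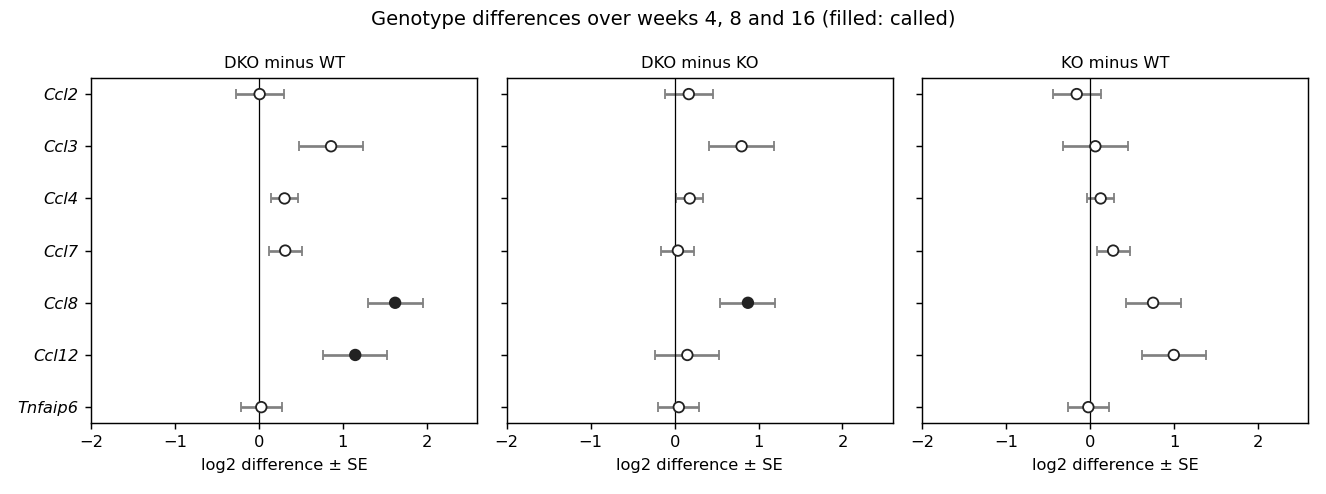
Log2 difference with its standard error (x axis) for each gene (y axis) over weeks 4, 8 and 16, for DKO minus WT, DKO minus Cyp1a1 KO, and Cyp1a1 KO minus WT; filled points passed the adjusted threshold. Ccl8 and Ccl12 are filled for DKO minus WT, Ccl8 alone for DKO minus KO, and none for KO minus WT.

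At single weeks, 4 of 16 comparisons tested called a member. One was Ccl8 in DKO at week 12, above. Ccl8 was higher in DKO than in KO at week 8 by 2.24 ± 0.57 (adjusted p = 0.00917), with 6.23 and 8.03 in DKO against 5.03 and 4.75 in KO, where 26% of all genes were called. It was higher in DKO than in WT at week 8 by 1.84 ± 0.57 (adjusted p = 0.0217), where 29.3% were. At week 16 Ccl8 (2.24 ± 0.57, adjusted p = 0.00576), Ccl12 (2.27 ± 0.66, adjusted p = 0.0117) and Ccl3 (1.98 ± 0.67, adjusted p = 0.0246) were higher in DKO than in WT, 3 of 7 against 39% of all genes. Ccl3 rested on 1 array: without DKO week 16 replicate 1 it differed by 0.09 (adjusted p = 0.891). With the number range as a block none of these between-genotype calls held, but that block nearly coincides with DKO and so cannot decide this. With only the groups compared, Ccl8 against WT at week 8 (adjusted p = 0.0823) and Ccl3 at week 16 (adjusted p = 0.260) were not called, nor was Ccl3 after quantile normalization (adjusted p = 0.114). Each was also lost without some single arrays: at week 8, Ccl8 without DKO replicate 2 (1.34 against KO, 0.94 against WT) or without either KO or WT array, and at week 16, Ccl12 without DKO replicate 1 (1.61) or either WT array, Ccl3 also without either WT array, and Ccl8 without WT replicate 1 (2.06, adjusted p = 0.0522).

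Tnfaip6 at week 16 was lower in both Cyp1a1 KO arrays than in both WT arrays, without passing the test. It read 4.10 and 4.10 in KO, against 5.12 and 5.80 in WT, a difference of -1.36 ± 0.42 (adjusted p = 0.313). In DKO it read 4.77 and 4.79 at that week. The WT arrays were the 2 highest at week 16. The share of all genes without overlap between KO and WT at that week was not counted, and 12 genes were called.

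The pathway around these genes was read in DKO, over weeks 4 to 16 against week 0. None of 7 measured chemokine receptors of 8 listed was called, with a median difference of -0.11 against 0.04 for all genes. Ackr2, a scavenger that clears inflammatory CC chemokines, had 0.87 ± 0.21 (adjusted p = 0.0528). Ccrl2, which binds chemerin, had 0.72 ± 0.40, and Ackr1, a scavenger on venules and red cells, had -0.44 ± 0.26. Of 11 measured other CC chemokines none was called (median 0.30), with Ccl5 at 0.65 ± 0.27, Ccl25 at -0.77 ± 0.34 and Ccl17 at -0.79 ± 0.38. Of 19 cytokine and NF-kB genes none was called, with 16 positive and a median of 0.45. Il1b had 1.45 ± 0.43 (adjusted p = 0.0998), Csf1, the macrophage growth factor, 0.77 ± 0.30, and Il6 0.67 ± 0.28. Of 17 hyaluronan genes, the matrix that Tnfaip6 modifies, none was called (median 0.15), with the hyaluronidase gene Hyal1 at -0.92 ± 0.43, Thbs1 at 1.13 ± 0.54 and Itih5 at -0.41 ± 0.31.

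At DKO week 16, where 4.04% of all genes were called, 5 of these passed. Ackr2 rose by 0.98 ± 0.27 (adjusted p = 0.0443), 1 of 7 receptors. Il1b rose by 2.27 ± 0.55 (adjusted p = 0.0249), Il6 by 1.29 ± 0.36 (adjusted p = 0.0454) and Tlr2, a receptor for bacterial lipoproteins, by 1.44 ± 0.30 (adjusted p = 0.0130), 3 of 19 cytokine and NF-kB genes. Has1, a hyaluronan synthase, rose by 0.92 ± 0.25 (adjusted p = 0.0413), 1 of 17, a share near that of all genes. Tlr2 and Has1 were named after their values were seen. Calls over all genes at DKO week 16 fell from 759 to 5 with array weights. The calls of these listed genes were not rechecked under the alternatives. At week 12 Il1b rose by 2.46 ± 0.55 (adjusted p = 0.0401), with 7.48 and 8.36 against 5.46 and 5.47 at week 0, and it was the only one of the 19. The part of Il1b in the Tnfaip6 values was not tested in any genotype.

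The genes whose pattern was most like that of Ccl7 over the 21 wide-range arrays were Cd80 (Pearson r = 0.81), a co-stimulatory ligand on antigen-presenting cells, Tes (0.80), Pdzk1ip1 (0.78), Ndel1 (0.77) and Kcne3 (0.75). Among the 7 genes, r with Ccl7 was 0.88 for Ccl2, 0.78 for Tnfaip6 and 0.54 for Ccl8. Without the 2 WT week 12 arrays, 19 arrays gave 0.82 for Cd80, 0.59 for Tes, 0.67 for Pdzk1ip1, 0.76 for Ndel1, 0.58 for Kcne3, 0.58 for Ccl2, 0.30 for Tnfaip6 and 0.82 for Ccl8. The likeness of Ccl7 to Ccl2 and Tnfaip6 thus leaned on the WT week 12 arrays, and that to Ccl8 did not. Among those 19 arrays, however, DKO week 12 replicate 2 held the highest Ccl7 (6.74) and the highest Ccl8 (8.24). The r without that array was not computed. For Tnfaip6 the most alike were Gfpt2 (0.84), Fhl2 (0.82), Timp1 (0.80), a metalloproteinase inhibitor, Tnfrsf12a (0.79), the TWEAK receptor, and Hbegf (0.79), a ligand of the EGF receptor. Without the WT week 12 arrays these were 0.82, 0.72, 0.49, 0.43 and 0.74, and r between Tnfaip6 and Ccl2 was 0.61 in place of 0.90. Over all 30 arrays each value was lower than over the 21. With Ccl7 they were 0.55 for Cd80, 0.64 for Tes, 0.59 for Pdzk1ip1, 0.45 for Ndel1 and 0.43 for Kcne3. Among the 7 genes they were 0.67 for Ccl2, 0.63 for Tnfaip6 and 0.52 for Ccl8. With Tnfaip6 they were 0.69 for Gfpt2, 0.52 for Fhl2, 0.21 for Timp1, 0.51 for Tnfrsf12a and 0.54 for Hbegf. These values are descriptions over arrays that share groups and genotype.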

How the data were processed

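Expression was measured on 30 arrays of preputial gland RNA, with 2 arrays in each of 15 groups. The authors deposited log2 intensities per probe set, made with RMA per the submitters' processing notes (no version given); RMA usually corrects background, makes array distributions alike and combines probes. The deposited arrays were not alike, with standard deviations of 1.15 to 2.08 and medians of 5.12 to 5.47, and whether RMA was run once over all of them is not stated. The sources used here do not name the genome build or annotation of the probe sets. The number of arrays limits the precision, and no detection value was used.

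The table held 21212 probe sets: 18786 with a single gene symbol, 6 with more than 1, and 2420 without an entry in the platform annotation. Where a gene had more than 1 probe set, that of highest mean was used, which left 18784 genes, all tested without a filter on low values. Each of the 7 genes has 1 probe set. A model with a mean for each group was fitted in limma 3.58.1 (R 4.3.3) over all arrays, with moderated variances, two-sided tests and Benjamini-Hochberg adjustment over all genes within a comparison. Called means an adjusted p below 0.05. The script was tested on simulated data. Errors after ± are the model's standard errors.

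The 7 genes, the gene lists and the comparisons were chosen with earlier results of these data known. Contrasts with WT week 0, WT week 12 or Cyp1a1 KO week 12 were used in that choice and are given without a test. The 16 comparisons at single weeks were secondary. By the rule for naming genes, the text names all 7, up to 3 members of each pathway list with the smallest adjusted p over DKO weeks 4 to 16, and the 5 genes most correlated with Ccl7 and with Tnfaip6, without predicted gene models. Genes named outside it are marked as such. Alternatives changed the normalization, the filter, the variance model, the arrays and groups used, the weighting, the blocks and the choice of probe set.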

Additional observations from a re-analysis of the deposited data

Results flagged for a closer look

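In 4 cases the change from week 0 ran in opposite directions in a pair of genotypes, with every array of one above, and every array of the other below, its own week 0 arrays. How many of all genes did so was not counted, so nothing is read from the number of cases. For Tnfaip6 the week 16 change was -0.36 in Cyp1a1 KO against 1.13 in WT, a difference of -1.49. For Ccl2 the week 8 change was 1.05 in DKO against -0.28 in WT, a difference of 1.33. For Ccl4 the week 8 change was -0.21 in DKO against 0.27 in WT, a difference of -0.48. These 3 differences were not tested, because WT week 0 was used to choose the genes. For Ccl7 the week 8 change was 0.77 in DKO against -0.18 in Cyp1a1 KO, and the difference of 0.95 ± 0.48 was not called (limma adjusted p = 0.508).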

How the results depend on the processing

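Under the alternatives, 953 of 1068 values of the 7 genes in the 8 main comparisons kept their direction and their side of the threshold, 24 passed it, 12 no longer did, and 79 changed sign while not called. In the 4 single-week comparisons with a called member, 300 of 359 values kept both, 3 passed, 28 no longer did and 28 changed sign while not called. No called value reversed. These totals include settings that could not move a difference. Each of the 7 genes has 1 probe set, so averaging probe sets left its values as they were. Settings that changed only the variances could move a call but not a direction. For DKO weeks 4 to 16, 0 members were called; quantile normalization called 1 (Ccl8), leaving out the narrow-range arrays 3, though this leaves only week 12 replicate 2 against week 0 replicate 1 and so speaks for week 12 alone, and leaving out single arrays 0 to 1. For DKO week 16 the count was 0, with 1 (Ccl8) after quantile normalization and 0 to 1 when single arrays were left out. For KO against WT it was 0, with 3 under array weights, 3 with only the groups compared and 2 without narrow-range arrays. For DKO against WT it was 2, with 0 under the number block and 2 to 4 when single arrays were left out, the 4 without DKO week 16 replicate 2. For DKO against KO it was 1, with 0 after median centring, with only the groups compared and with the number block, and 0 to 2 when single arrays were left out. For WT week 16 it was 0, with 2 under array weights. The cause of these moves was not tested. Counts over all genes moved by over 1.5 times: 183 became 2 to 1508 for DKO weeks 4 to 16, 759 became 5 to 3393 for DKO week 16, 28 became 13 to 4748 for KO against WT, 12900 became as few as 121 and 11804 as few as 24 under the number block, and 7 became 0 to 299 for the difference between changes. With the replicate number as a block, member counts in the main comparisons did not change, and the Ccl8 call at DKO week 12 had adjusted p = 0.0643. Same-numbered samples did not deviate together (median correlation -0.022, from -0.55 to 0.67), so the numbers do not pair them. The setting without narrow-range arrays gives no value for DKO week 16 or for DKO against KO or WT over weeks 4, 8 and 16, and a filter that kept 9392 genes gives none for members below it. Single-week alternatives were added after seeing the data.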
